A study of Mus musculus with 12 samples.

Results

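The transcripts of 4 regulators of interferon and MHC class I genes, Stat2, Irf5, Irf7 and Nlrc5, were followed in CD31+ cells from mouse lung under a high fat diet (HFD) and with deletion of the DNA demethylase TET2. They were chosen from the STAT, IRF and MHC regulators of the interferon response with earlier results of these data known. They are 4 of the 9338 genes that at least 1 of the 4 deposited comparison tables lists. Not every STAT or IRF gene listed for HFD against chow in WT mice is among them. Irf2, higher on HFD, and Stat4 and Stat5a, lower on HFD, are left out. Each table lists only genes with an unadjusted p-value under 0.05 in the authors' own test. All 4 genes were listed for HFD against chow in WT mice, 3 of them (Stat2, Irf5 and Irf7) for HFD against chow in TET2 KO mice, and 0 in either comparison of TET2 KO with WT. Values of Stat2, Irf5 and Irf7 were therefore at hand in all 12 libraries, and values of Nlrc5 in the 6 WT libraries.

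RNA was sequenced from 12 male mice on a C57Bl/6J background, 3 for each of 4 groups, and a library came from 1 mouse. All mice carried floxed Tet2 alleles (TET2 fl/fl) and all received tamoxifen, 40 mg/kg on 3 days in a row when they were between 6 and 8 weeks old. TET2 KO mice also carried Cdh5-CreERT2, a Cre recombinase under an endothelial promoter that tamoxifen activates, and WT mice were Cre negative. The diets were chow with 13% of kcal from fat or HFD with 60%, given for 20 weeks, and the lungs were taken at 30 weeks of age. The 4 groups were WT chow, TET2 KO chow, WT HFD and TET2 KO HFD. Cells were obtained by digesting lung tissue and retaining them on anti-CD31 microbeads, so the deletion is directed at endothelial cells and other CD31+ cells are not its target. Tet2 itself is not listed in either genotype table, so these values do not check the genotypes. The study's methods describe PCR typing of ear clips and PCR for the recombined allele in CD31+ cells.

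Interferons act through receptors whose Janus kinases phosphorylate STAT proteins. STAT2 and IRF9 are subunits of ISGF3, the complex that binds interferon-stimulated response elements (ISRE) after type I or type III interferon, whereas interferon gamma (IFNG) acts mainly through gamma-activated sites (GAS). IRF7 and IRF5 act a step earlier, downstream of nucleic acid and Toll-like receptors, where they switch on interferon and cytokine genes, and Irf7 is itself an interferon-stimulated gene. NLRC5 is the transactivator of MHC class I genes, as CIITA is of MHC class II genes.

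The files place Stat2 (ENSMUSG00000040033) on the plus strand of chromosome 10 from 128270559 to 128292849, and Irf5 (ENSMUSG00000029771) on the plus strand of chromosome 6 from 29526625 to 29541871, both in build mm10 (GRCm38). Irf7 (ENSMUSG00000025498) lies on the minus strand of chromosome 7 from 141262706 to 141266481, and Nlrc5 (ENSMUSG00000074151) on the plus strand of chromosome 8 from 94434356 to 94527272. All 4 are protein coding. A gene on the opposite strand overlaps 3 of them, Tnpo3 with 1045 bases of Irf5, Phrf1 with 45 bases of Irf7 and the long non-coding 9330175E14Rik with 748 bases of Nlrc5, and Mir7072 lies within Nlrc5 on its own strand. None of these overlapping genes is listed in a table. Whether the counting used strand is not given in the sources used here, so reads from the shared bases cannot be assigned to 1 gene.

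The promoters of the 3 members that RefSeq's table on GRCm38.p6 holds are shown because these genes were listed together in both diet comparisons. Each is the 250 bases before the RefSeq start, read along the gene's own strand, with the letters of an ISRE core in capitals. Stat2 is chr10:128270248-128270497 on the plus strand, Irf5 is chr6:29526375-29526624 on the plus strand, and Irf7 is chr7:141266425-141266674 on the minus strand. RefSeq's starts of Stat2 and Irf7 differ from those in the files.
Stat2: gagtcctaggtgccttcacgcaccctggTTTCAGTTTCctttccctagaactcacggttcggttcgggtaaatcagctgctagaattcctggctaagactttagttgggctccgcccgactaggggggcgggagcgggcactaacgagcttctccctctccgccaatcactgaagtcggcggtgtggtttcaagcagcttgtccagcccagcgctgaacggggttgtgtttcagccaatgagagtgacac
Irf5: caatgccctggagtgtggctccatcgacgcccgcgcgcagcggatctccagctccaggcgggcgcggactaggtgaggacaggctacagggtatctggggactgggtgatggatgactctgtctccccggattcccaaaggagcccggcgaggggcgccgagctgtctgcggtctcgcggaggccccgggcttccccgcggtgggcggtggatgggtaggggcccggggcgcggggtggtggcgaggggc
Irf7: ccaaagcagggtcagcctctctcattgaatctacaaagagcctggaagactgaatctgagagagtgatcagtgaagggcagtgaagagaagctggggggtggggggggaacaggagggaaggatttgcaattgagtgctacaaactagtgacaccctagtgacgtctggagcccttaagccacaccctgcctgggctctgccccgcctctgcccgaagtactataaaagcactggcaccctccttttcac

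The ISRE core was searched as GAAA, any 2 bases and GAAA again, and the GAS as TTC, any 3 bases and GAA, both on each strand, and a stretch can hold both motifs in part. The Stat2 promoter holds 1 ISRE core, TTTCAGTTTC, from 222 to 213 bases before the start, which reads as the motif on the other strand. The Irf5 and Irf7 windows hold neither motif, and none of the 3 holds a GAS. Among all 32851 promoter windows of the table, 2.98% hold the ISRE core and 7.02% the GAS. Of the windows of a list of known ISGF3 target genes, 9 of 25 hold the ISRE core, and of those of the IFNG target genes 8 of 11. Beside them stand 3 of 15 windows of MHC class I and peptide processing genes, 2 of 9 of STAT factors and 1 of 11 of IRF factors, the members included. The GAS is held by 5 of 25, 4 of 11, 2 of 15, 0 of 9 and 3 of 11 in the same order. The base composition of the windows differed, with 56.8% G and C for Stat2, 54.4% for Irf7 and 72% for Irf5. These matches describe letters in a window, not bound sites.

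Irf7 showed the widest diet difference of the members on the log2 scale, though not in FPKM, where that of Irf5 was wider. Its FPKM, fragments per kilobase of gene length and per depth of the library, which makes levels comparable between genes of different length, was 15.3, 13.6 and 16.8 in the WT chow libraries and 26.5, 21.3 and 27.1 in the WT HFD libraries. In TET2 KO mice it was 14.4, 17.2 and 19.3 on chow and 20.0, 32.1 and 26.4 on HFD. Every HFD library lay above every chow library of its own genotype. The group means were 15.2 ± 1.61 FPKM (SD, n = 3) in WT chow, 17.0 ± 2.44 in TET2 KO chow, 25.0 ± 3.19 in WT HFD and 26.2 ± 6.09 in TET2 KO HFD, so the order of the levels followed the diet first. On each diet the ranges of the 2 genotypes overlapped.

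Irf5, expressed above all in myeloid and B cells in most tissues, stood at the highest level of the members in every library. It was present at 44.2, 36.2 and 30.2 FPKM in WT chow and at 48.8, 51.9 and 62.3 FPKM in WT HFD. In TET2 KO mice the level was 31.0, 31.9 and 37.6 FPKM on chow and 35.7, 51.2 and 56.9 FPKM on HFD. The WT groups were apart, but TET2 KO HFD replicate 1 lay below TET2 KO chow replicate 3. Group means ran from 33.5 ± 3.57 FPKM (SD, n = 3) in TET2 KO chow over 36.9 ± 7.05 in WT chow and 47.9 ± 11.0 in TET2 KO HFD to 54.3 ± 7.09 in WT HFD.

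Stat2 had the narrowest range of the 3 members with values in 12 libraries. Its level was 15.7, 14.1 and 16.2 FPKM in WT chow against 22.4, 19.6 and 17.2 FPKM in WT HFD. In TET2 KO mice it was 17.6, 15.1 and 16.9 FPKM on chow against 21.0, 21.4 and 19.0 FPKM on HFD. The diets did not overlap within either genotype, although WT HFD replicate 3 fell below TET2 KO chow replicate 1. The means were 15.3 ± 1.11 (SD, n = 3), 16.6 ± 1.29, 19.7 ± 2.57 and 20.5 ± 1.27 FPKM in WT chow, TET2 KO chow, WT HFD and TET2 KO HFD.

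Nlrc5 was read in WT mice alone, at 17.0, 12 and 14.3 FPKM on chow and 18.6, 18.8 and 17.5 FPKM on HFD. The groups did not overlap, but the gap between WT chow replicate 1 and WT HFD replicate 3 was small. The mean was 14.5 ± 2.50 FPKM (SD, n = 3) on chow and 18.3 ± 0.656 FPKM on HFD, and the spread was wider on chow.

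**Figure D1:**
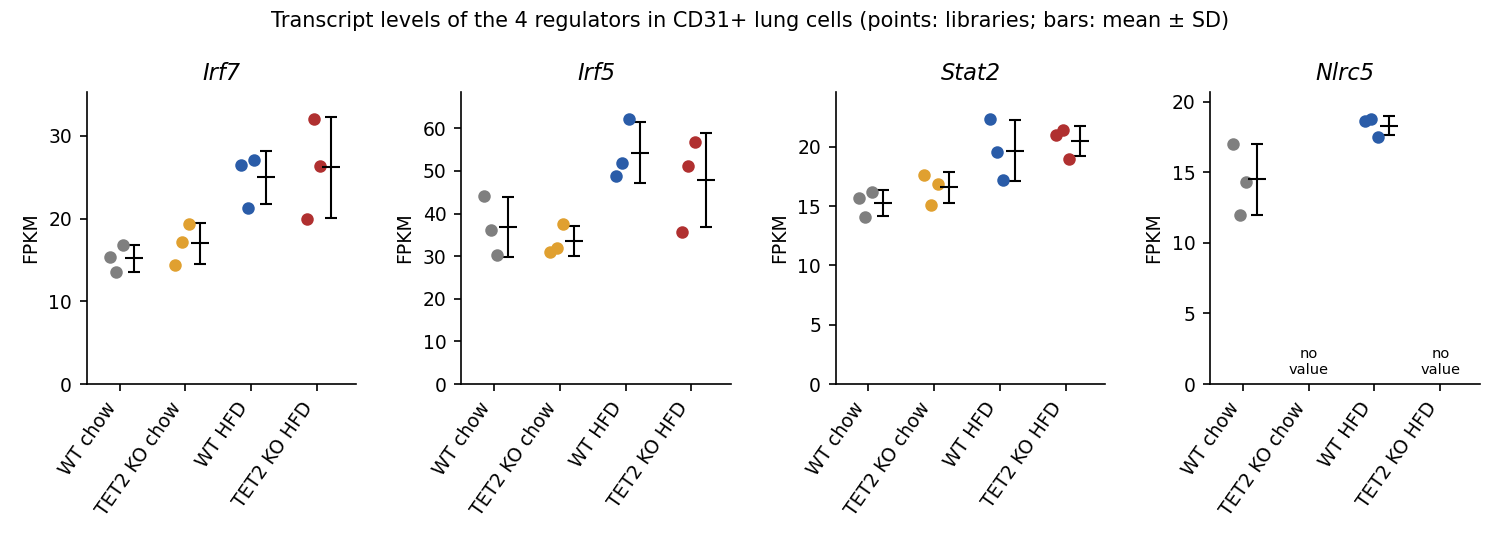
FPKM (y axis, from 0) of Irf7, Irf5, Stat2 and Nlrc5 in each library (points) of the 4 groups (x axis), with the group mean and SD as bars. The HFD points lie above the chow points of the same genotype except for TET2 KO HFD replicate 1 in Irf5, at 35.7 FPKM, and Nlrc5 has no value in TET2 KO groups.

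The counts behind these levels were 1883 to 8957 reads, which limits the counting error of any single value to 2.3% or less, well under the spread between mice. The libraries held 36.7 to 56.8 M reads on genes, and the deepest was WT HFD replicate 1.

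The first comparison asked what HFD feeding does in WT mice. All 4 members rose in the edgeR quasi-likelihood test at an unadjusted p under 0.05, Irf7 by 1.65-fold, Irf5 by 1.48-fold, Stat2 by 1.29-fold and Nlrc5 by 1.27-fold. This comparison moved much of the transcriptome. It listed 30.2% of the genes the authors' test adjusted over, 42.4% of the listed genes rose in the edgeR test, and in 39.8% of them every HFD library lay above every chow library, as in all 4 members. A listed gene had already passed a test on the same libraries, so the edgeR result re-measures the difference in those mice and is no independent evidence of it.

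On the log2 scale, the diet difference in WT mice was 0.72 for Irf7 (SE 0.14, 95% confidence interval 0.38 to 1.06), with an adjusted p = 0.0416 after Benjamini-Hochberg adjustment of the edgeR test. Irf5 differed by 0.57 (SE 0.17, interval 0.16 to 0.97, edgeR adjusted p = 0.0865). Stat2 differed by 0.37 (SE 0.13, interval 0.06 to 0.68, edgeR adjusted p = 0.124). Only Irf7 of the 4 passed 0.05 after adjustment, as did 18.6% of all listed genes. Over the fits of the WT libraries alone, the adjusted p of Irf7 ran from 0.000503 with DESeq2 to 0.149, and it was under 0.05 in 7 of 13 fits, the one given here included. Of the fits without 1 library, only that without WT chow replicate 3 kept it under 0.05. Nlrc5 differed by 0.34 (SE 0.15), with an interval whose lower bound was 0.0014 and an edgeR adjusted p = 0.179. Among the 3469 genes listed as higher on HFD, with a median log2 difference of 0.79, Irf7 exceeded 45.7%, Irf5 34.4%, Stat2 12.8% and Nlrc5 9.66%. The members were thus below the middle of the genes listed as higher.

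The calls of Irf7 and Irf5 held in 6 of 6 fits that left out 1 library, with unadjusted edgeR p-values up to 0.00692 and 0.0417. That of Stat2 held in 2 of 6 and that of Nlrc5 in 1 of 6. Nlrc5 fell to a log2 difference of 0.23 without WT chow replicate 2, its lowest library, and was then not called. With 3 mice against 3, an exact permutation test of a single gene cannot give a two-sided p below 0.1.

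The second comparison asked the same question in TET2 KO mice. Of the 3 members listed, Irf7 rose by 1.54-fold and Irf5 by 1.43-fold, while Stat2, at 1.24-fold, did not pass the edgeR test. This table listed 7.6% of the genes adjusted over, and 29.3% of the listed genes rose in the edgeR test. The HFD libraries were wholly above the chow libraries in 30.2% of them, as they were in Irf7 and Stat2. The log2 difference of Irf7 was 0.63 (SE 0.21, interval 0.14 to 1.12, edgeR adjusted p = 0.828), and that of Irf5 was 0.52 (SE 0.21, interval 0.05 to 0.99, edgeR adjusted p = 0.831). For Stat2 it was 0.31 (SE 0.15, interval -0.03 to 0.64, edgeR adjusted p = 0.979). No member passed 0.05 after adjustment, nor did any listed gene but 1, or 0.0614% of those listed.

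These calls turned on single mice. TET2 KO HFD replicate 1 was the lowest HFD library for both Irf7 and Irf5, and without it the log2 differences were 0.79 and 0.69. The call of Irf7 was lost without TET2 KO chow replicate 1 or without TET2 KO HFD replicate 2, the library at 32.1 FPKM, where the log2 difference was 0.45. The call of Irf5 held in 2 of 6 such fits and its log2 difference was 0.38 without TET2 KO HFD replicate 3. The median log2 difference of the 638 genes listed as higher was 0.84, and Irf7 exceeded 32.4%, Irf5 23.2% and Stat2 1.72% of them.

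Whether genotype altered the diet difference was tested in 1 edgeR fit of all 12 libraries, over the 975 genes with counts in each. The diet difference in TET2 KO minus that in WT was -0.09 on the log2 scale for Irf7 (interval -0.73 to 0.56, adjusted p = 0.893), -0.04 for Irf5 (interval -0.71 to 0.63, adjusted p = 0.948) and -0.06 for Stat2 (interval -0.57 to 0.45, adjusted p = 0.901). None of the 3 was called, against 56.4% of the 975 genes and 31.1% of the 611 that, like these members, were listed for diet in both genotypes. The lower bounds lay between -0.73 and -0.57 and the upper bounds between 0.45 and 0.63. The intervals thus leave room for a difference between genotypes about as large as the diet difference in WT for Irf7. For Irf5 and Stat2 they leave room for a larger one in either direction. Being listed in both diet tables in 1 direction also favours a small value here. Of those 611 genes, 109 were higher on HFD in both genotypes, 321 lower in both and 181 opposite.

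The same fit gave the genotype difference that no table lists for the members, in contrasts added after the data were seen. On chow, TET2 KO differed from WT by a log2 value of 0.16 in Irf7 (interval -0.30 to 0.61), -0.14 in Irf5 (interval -0.62 to 0.34) and 0.11 in Stat2 (interval -0.25 to 0.47). On HFD the values were 0.07 in Irf7 (interval -0.39 to 0.52), -0.18 in Irf5 (interval -0.66 to 0.30) and 0.05 in Stat2 (interval -0.31 to 0.41). The unadjusted edgeR p-values lay between 0.426 and 0.754, and 0 of 3 members were called on either diet. The members are in neither genotype table, so the authors' test on the same libraries had already left them above 0.05. Of the 975 genes, 28.7% were called on chow and 48% on HFD, and of the 611 listed for diet in both genotypes 14.7% and 28.5%, shares that include genes which the genotype tables list. The contrast plot shows every genotype interval across 0, whereas the diet intervals lie above 0 except that of Stat2 in TET2 KO.

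**Figure D2:**
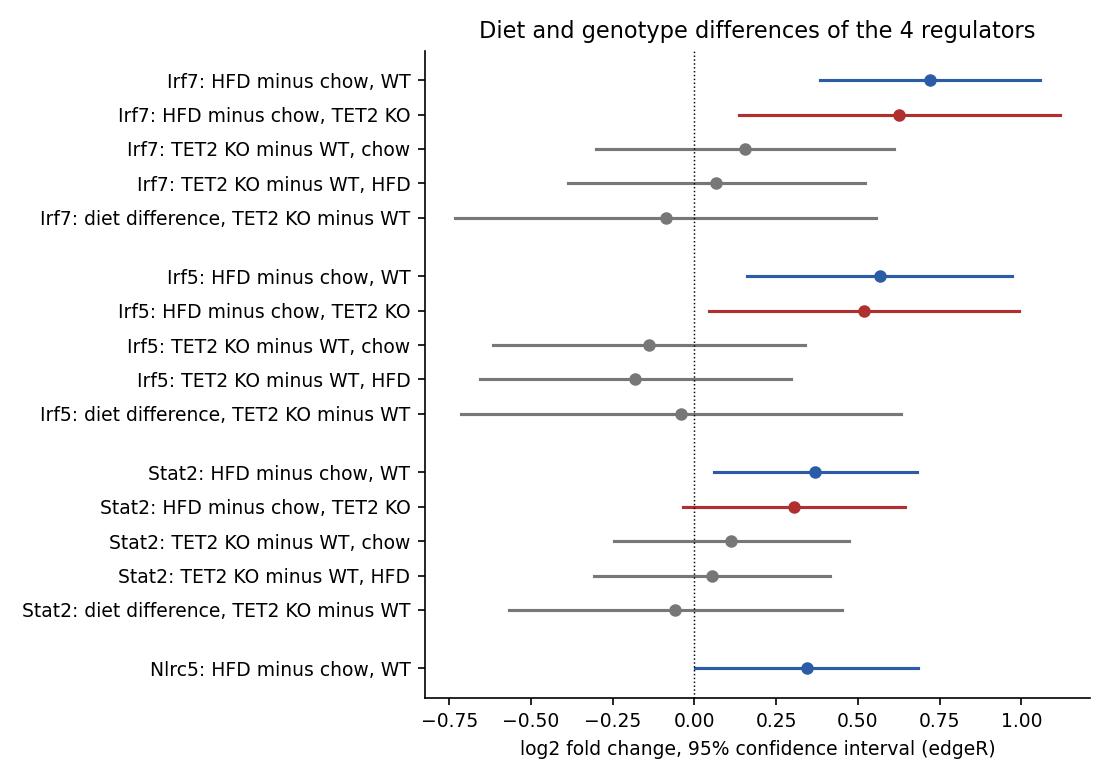
log2 fold changes (points) with 95% confidence intervals (lines) from edgeR for each member, with blue for HFD minus chow in WT, red for HFD minus chow in TET2 KO and gray for the genotype and interaction contrasts of the 12-library fit. The diet points run from 0.31 to 0.72, and the gray intervals all cross the dotted line at 0.

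The members' partners and upstream genes were read from a list of 60 other interferon regulation genes. In WT mice 15 of them were listed for diet and all 15 were called, 13 higher and 2 lower on HFD. Among all genes listed here, 91.6% were called in either direction. The 15 are 25% of the list, against 30.2% of all genes listed, and their median log2 difference was 0.59, beside -0.33 over all listed genes and 0.79 over those listed as higher. Irf2, a repressor and activator at ISRE elements, rose by a log2 value of 0.58. Stat4 fell by 0.57 and Stat5a, a mediator of cytokine signals, fell by 0.84. Irf9, which encodes the ISGF3 subunit that recognises the ISRE, was not listed in any table.

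Of 9 ligand and receptor genes 4 were listed for diet in WT mice, where 30.2% of all genes were listed. All 4 rose on HFD, beside 42.4% of the listed genes. Ifng rose by 0.99 from 1.23 to 2.46 FPKM, Ifnar2 by 0.59, Ifngr1 by 0.53 and the lambda receptor gene Ifnlr1, at under 1 FPKM, by 0.77. Of the 4 Janus kinases only Jak3, the partner of the common gamma chain, was listed and rose by 0.56. Of 11 negative regulators 4 were listed and rose. Usp18, which blocks the type I receptor, rose by 1.62, Socs3 by 0.66, Trim21, a ubiquitin ligase that targets IRF proteins, by 0.66 and the phosphatase gene Ptpn6 by 0.54. Upstream of IRF5 and IRF7, 3 of 16 genes were listed. The RNA-sensing receptor genes Tlr3 and Tlr7 rose by 1.03 and 0.87, and Slc15a4, the endolysosomal transporter that IRF5 activation needs, by 0.30. Of the genes in these 4 lists, only Usp18 (edgeR adjusted p = 0.0366) and Tlr3 (edgeR adjusted p = 0.0467) passed 0.05 after adjustment.

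In TET2 KO mice 4 of the 60 genes (6.67%, against 7.6% of all genes) were listed for diet, and 2 were called, both lower on HFD, as were 47.7% of the listed genes. Jak3 fell by 0.55 and Mavs, the mitochondrial adaptor of RNA sensing, fell by 0.61, while the receptor chains Ifnar1 (0.37) and Ifngr2 (0.34) did not pass the edgeR test. Only Jak3 was listed for diet in both genotypes, and in opposite directions.

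The same list was read for genotype, where the members are absent. On chow, 3 genes were listed and all rose in TET2 KO, Ifnlr1 by 0.61, Jak3 by 0.65 and Ikbke, a kinase of IRF proteins, by 0.45. These are 5% of the list in a table that listed 5.88% of the genes adjusted over and in which 30.6% of the listed genes rose. Only 1 of the 3 was called without WT chow replicate 2 or 3 or without TET2 KO chow replicate 1 or 3. On HFD 10 genes were listed and called, 5 higher and 5 lower in TET2 KO, in a table that listed 19.2% of the genes adjusted over, and in which 43.1% of the listed genes rose and 39.1% fell. Stat5a (0.71), Stat4 (0.68), Irf2bpl (0.41), Jak2 (0.40) and Ifngr2 (0.34) were higher. Tlr3 (-0.92), Usp18 (-0.60), Jak3 (-0.45), Socs3 (-0.37) and Irf2 (-0.34) were lower. The 10 genes are 16.7% of the list, and 3 to 5 of them were called when any 1 library was left out. No gene of either genotype table passed 0.05 after adjustment in edgeR, at 994 and 3241 listed genes with an unadjusted p under 0.05, whereas DESeq2 called 12 on chow and 570 on HFD after adjustment. The genotype tables share the WT or TET2 KO libraries with the diet tables.

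**Figure D3:**
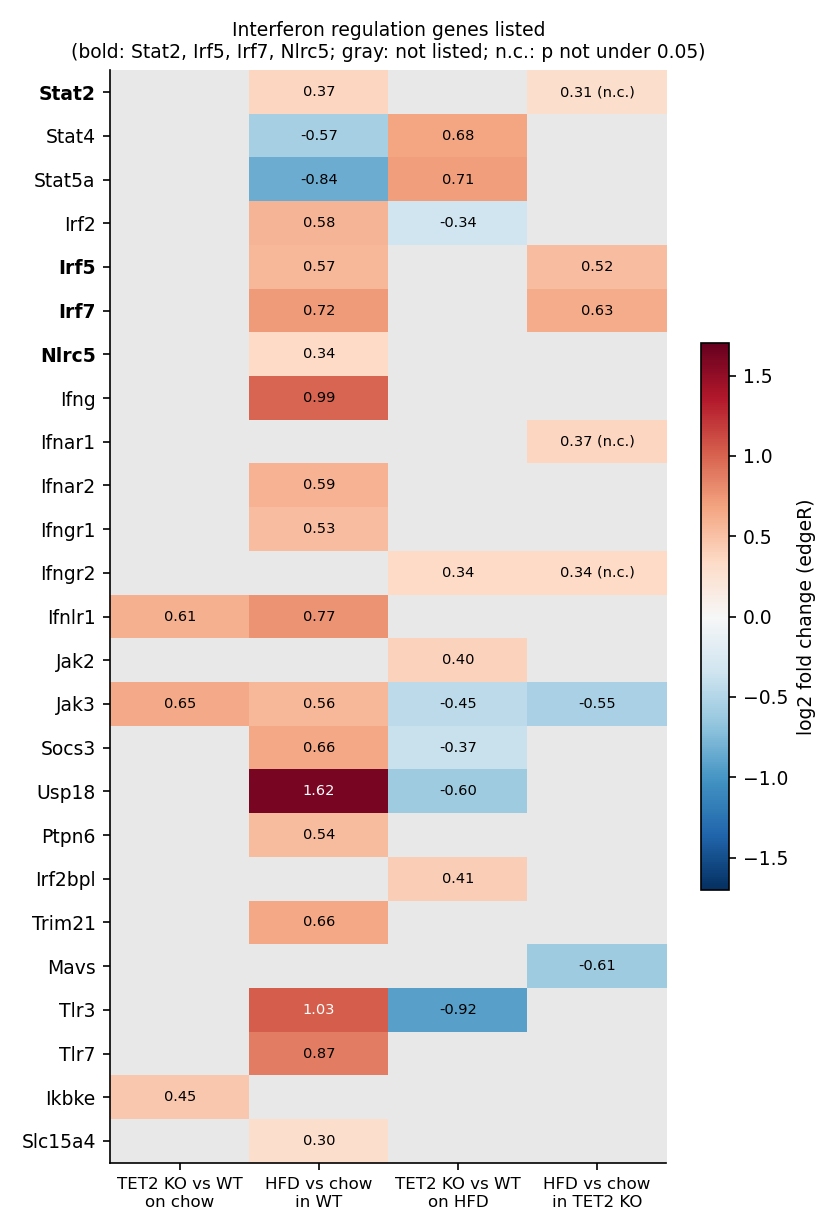
edgeR log2 fold change (color scale and printed value) of each interferon regulation gene (y axis) in each comparison that lists it (x axis), with gray for not listed. The column for HFD in WT is filled for all 4 members and mostly red, and the genotype columns are gray for Stat2, Irf5, Irf7 and Nlrc5.

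The lists of known targets held those of NLRC5 and of ISGF3, and, for comparison, those of IFNG and CIITA. They were chosen with earlier results of these data known. The shares of these lists given below, for diet and for genotype, thus describe these libraries and are no independent evidence. The class I list, read for NLRC5, holds 16 MHC class I and peptide processing or loading genes, Psmb8, Psmb10, Tap2, Tapbp and Tapbpl among them. Whether NLRC5 acts on each of them was not tested. Of these 16 genes 15 were listed, beside 30.2% of all genes. All 15 were called as higher on HFD, beside 42.4% of the listed genes, with a median log2 difference of 0.58. The immunoproteasome gene Psmb9 rose by 0.95, the non-classical class I genes H2-T23 and H2-T22 by 0.85 and 0.77 and the peptide transporter gene Tap1 by 0.70. B2m, the light chain of class I, was the most abundant of the list and went from 1445 to 2331 FPKM, a log2 difference of 0.70. The classical class I gene H2-K1 went from 774 to 1004 FPKM, a log2 difference of 0.38 (SE 0.14, edgeR adjusted p = 0.129). Reads of H2 genes can be divided among near-identical copies, so the values of single H2 genes are uncertain. Of 8 MHC class II genes, the targets of CIITA, only H2-DMb1 was listed, and it fell by 0.49.

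Of 28 ISGF3 target genes, 27 were listed in WT mice and all 27 rose on HFD, with a median log2 difference of 1.34. Ifi44 rose by 3.19, the antiviral Ifit3b, Ifit3 and Ifit1 by 2.83, 2.67 and 2.15. The smallest of these differences was 0.36 in Eif2ak2, the double-stranded RNA kinase, about that of Stat2. Of 17 IFNG target genes 9 were listed and all rose, among them the guanylate-binding protein genes Gbp5 (1.43), Gbp4 (1.15) and Gbp2 (0.94) and the immunity GTPase gene Irgm2 (0.92). Of the 69 genes in the 4 target lists 52 were listed, which is 75.4% beside 30.2% of all genes. Of these 52 genes 51 rose, beside 42.4% of all listed genes. Their median of 0.78 lay beside -0.33 over all genes listed and 0.79 over those listed as higher.

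In TET2 KO mice 21 of the 69 target genes were listed for diet, all higher on HFD, which is 30.4% beside 7.6% of all genes, and 19 were called. Of all genes listed for diet in TET2 KO, 29.3% rose. Without TET2 KO chow replicate 2, 12 target genes were called. The median of the 21 was 0.75, beside -0.51 over all genes listed and 0.84 over those listed as higher. The 10 ISGF3 targets listed all rose, led by Ifit1 (1.57), Ifit3b (1.51), Ifit3 (1.38) and Mx2 (1.37). IFNG targets were represented by 7 of 17, 6 of them called, with Iigp1 (1.84), Irgm1 (1.07), Gbp6 (0.96) and Cxcl10 (0.79) widest. Of the class I list 3 of 16 genes were listed and called, H2-Q4 (0.57), H2-Q6 (0.54) and H2-K1 (0.39), and Nlrc5 was not.

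**Figure D4:**
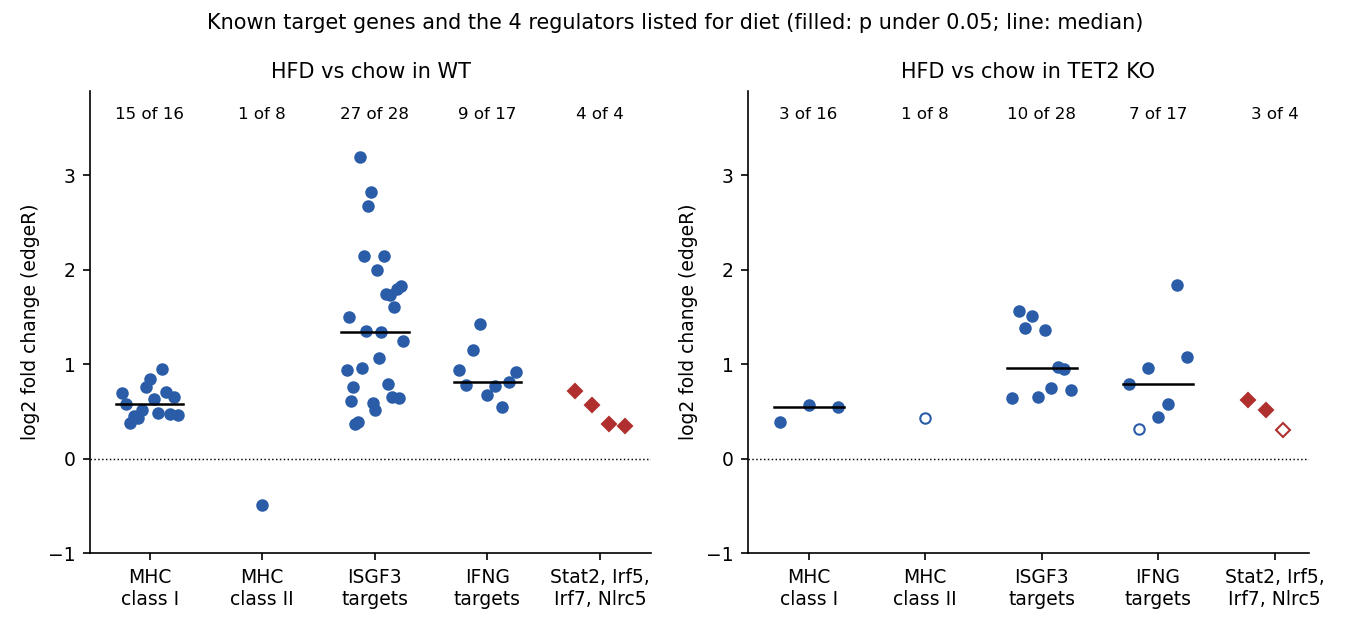
edgeR log2 fold change (y axis) of each known target gene listed for HFD against chow, by list (x axis), in WT on the left and TET2 KO on the right, with the members as diamonds, filled symbols for an unadjusted p under 0.05 and lines for medians. The numbers above give the genes listed of those in the list, 27 of 28 ISGF3 targets in WT and 10 of 28 in TET2 KO.

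The same 69 target genes were read for genotype. On chow 17 of 69 were listed in TET2 KO against WT (24.6%, beside 5.88% of all genes), of which 10 rose and Iigp1 fell by 0.93, with Oas3 (1.03), Oas2 (1.00), Gbp5 (0.80) and Mx1 (0.71) widest. Of all genes listed on chow, 30.6% rose, and 597 of 1298 fell. The 11 called target genes were 7 without WT chow replicate 1, 3 without WT chow replicate 2, and 4 without TET2 KO chow replicate 1 or 3. On HFD 11 of 69 were listed, of which 8 fell and 0 rose, with Ifi44 (-1.36), Xaf1 (-0.68), Ifih1 (-0.66), Gbp5 (-0.66) and Oasl2 (-0.64) widest. That is 15.9% of the lists beside 19.2% of all genes listed, and of the listed genes 39.1% fell and 43.1% rose. Of the target genes, 4 were called without WT HFD replicate 1 or TET2 KO HFD replicate 1. Both tables were without Stat2, Irf5, Irf7 and Nlrc5.

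Markers of several cell types differed with diet in the same libraries. For HFD against chow in WT mice, 30.2% of all genes were listed and 42.4% of the listed genes rose. All 10 endothelial markers were listed and rose, and none was at 0. Their summed FPKM was 282, 244 and 652 on chow and 1265, 1040 and 730 on HFD, with Cldn5 most abundant at 80.2 to 445 FPKM. Pecam1, which encodes CD31, rose from 53.3 ± 23.4 to 121 ± 30.4 FPKM (SD, n = 3), a log2 difference of 1.19. In bulk RNA, fewer cells of a type and less RNA per cell cannot be told apart.

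NK cell markers rose in 9 of 10 cases in WT mice. Over all genes of this comparison, 30.2% were listed, and of the 7330 listed 42.4% rose and 3607 fell. The summed FPKM of the NK markers was 63.8, 36.3 and 41.5 on chow and 139, 106 and 180 on HFD. Gzma ran from 9.26 to 69.2 FPKM and had the highest mean on HFD, 51.0 FPKM. On chow Nkg7 did, at 15.4 FPKM beside 12.5 FPKM for Gzma. Of 14 monocyte and macrophage markers 7 were listed, with Cx3cr1, Ccr2, Csf1r and Ly6c2 higher and Marco, Mrc1 and Siglecf lower on HFD. Their sum was 225, 339 and 285 FPKM on chow and 291, 251 and 409 FPKM on HFD. Csf1r ran from 61.8 to 221 FPKM and had the highest mean on HFD, 160 FPKM. On chow Mrc1 did, at 95.7 FPKM beside 69.4 FPKM for Csf1r. Of 12 T cell markers, Lck and Cd8a were listed and rose, with a sum of 37.1, 23.6 and 26.3 FPKM on chow and 51.4, 42.9 and 34.6 FPKM on HFD, and of 10 B cell markers 0 were listed. Of 10 dendritic cell markers Zbtb46 rose, of 9 neutrophil markers Retnlg fell, of 10 fibroblast and smooth muscle markers Pdgfrb rose and Tagln fell, and of 14 lung epithelial markers 3 rose and 2 fell. Scgb1a1 of airway club cells reached 4165 to 5481 FPKM in WT chow and 1991 to 4096 FPKM in WT HFD, so the CD31 selection left transcripts of other cells.

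Within WT HFD, Irf5 was highest and Stat2 lowest in replicate 3, the library with the lowest endothelial sum and the highest NK and monocyte sums. The part of cell type content in the diet difference of the members was not tested.

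The marker lists were read in the same way in TET2 KO mice, where 7.6% of all genes were listed for diet. Of the listed genes 29.3% rose and 47.7% fell. Of the endothelial markers only Emcn was listed, at 2.67, 2.60 and 1.96 FPKM on chow and 7.25, 3.45 and 3.55 FPKM on HFD, and it rose by a log2 value of 0.98. The T cell markers Trac, Cd8a and Cd8b1 fell. Their sum was 78.9, 66.0 and 82.7 FPKM on chow and 50.8, 39.2 and 54.2 FPKM on HFD. Trac had the highest mean on chow, 32.5 FPKM beside 29.2 FPKM for Cd8b1, and on HFD both were at 19.4 FPKM. Of the 5 macrophage markers listed, all lower on HFD, Mrc1, Marco and Lyz2 fell, and Lyz2 ranged from 3866 to 5381 FPKM on chow and from 1948 to 3285 FPKM on HFD. The fibroblast markers Col3a1 and Dcn rose, with summed FPKM of the 4 listed of 8.27 or less. Of the other lists, the B cell gene Blk rose, the dendritic cell gene Cd209a and the neutrophil gene Mmp8 fell, and of 14 lung epithelial markers Muc5b rose and Epcam fell.

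TET2 KO HFD replicate 1, the lowest HFD library for Irf7 and Irf5, had the highest Emcn, the lowest Lyz2 (1948 FPKM) and the lowest Gzma among the HFD libraries of that genotype, 12.2 FPKM against 53.1 and 54.5 FPKM. The part of these differences in the level of the members was not tested. Between genotypes on chow, the libraries in which regulation and target genes were higher in TET2 KO also differed in markers. This comparison listed 5.88% of all genes, and of the 1298 listed 30.6% rose and 597 fell. Of 12 T cell markers 8 were listed and 6 rose, with a sum of 112 ± 24.2 FPKM (SD, n = 3) in WT and 174 ± 25.5 FPKM in TET2 KO. Lck had a mean of 20.7 FPKM in WT, as did Lat, and of 33.2 FPKM in TET2 KO, beside 32.5 FPKM for Trac. The NK genes Nkg7 and Prf1 and the monocyte genes Ccr2 and Cx3cr1 rose as well. Of 14 lung epithelial markers 4 fell, with a sum of 5197 ± 775 FPKM in WT and 2789 ± 379 FPKM in TET2 KO and Scgb1a1 most abundant, and of 10 fibroblast and smooth muscle markers 4 fell. No endothelial marker was listed, and the part of these markers in the differences was not tested.

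Between genotypes on HFD, 7 endothelial markers were listed, all lower in TET2 KO, and 6 were called. This comparison listed 19.2% of all genes, and 39.1% of the listed genes fell. Pecam1 was at 75.8 ± 16.0 FPKM (SD, n = 3) in TET2 KO HFD, a fall of the log2 level by 0.67 from WT HFD. Ccr2, the dendritic cell genes Clec9a and Cd209a and the epithelial genes Ager and Hopx fell as well, and their part in the lower levels of target genes was not tested.

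The genes whose levels ran most alike with each member were found by Pearson's r of log2(FPKM + 0.1) over the libraries that hold the member, among genes with a mean of at least 1 FPKM. For Stat2, over 12 libraries and 703 genes, these were the ISGF3 targets Mx2 (r = 0.94), Ifit3 (0.91), Cmpk2 (0.91), Ifit3b (0.90) and Ifit1 (0.89). For Irf7 they were Ly6i (0.94), Isg15 (0.93), S1pr5 (0.92), Apoe (0.92) and Gjb2 (0.92). For Irf5 they were Cyp27a1 (0.97), Hpse (0.92), Gzma (0.91), Eno3 (0.88) and Adgre4 (0.86).

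Among the members, Irf7 ran with Irf5 at r = 0.78 and with Stat2 at r = 0.74, whereas Stat2 and Irf5 stood at r = 0.45, with Irf5 180th in the order of Stat2 and Stat2 103rd in that of Irf5. For Nlrc5, over 6 WT libraries and 4659 genes, Smad4 (0.99), Akna (0.99) and Ubl7 (0.99) were among the 5 that came first, and Stat2 stood at 0.81. All these genes were listed for a difference between the same groups and share libraries and depth with the members, so the values are a description, and each holds a part that the diet groups set.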

How the data were processed

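Poly-A RNA of CD31+ lung cells was sequenced as paired-end reads from 12 libraries, grouped by the sample titles. The authors ran HISAT2 on mm10, then featureCounts and DESeq2. Versions, annotation release and strand setting are not given in the sources used here. The authors deposited raw counts, a normalized signal (count divided by the size factor of the library) and FPKM for each table. The deposited tables also hold the authors' log2 fold changes and p-values, of which the p-values were used only to find the listing threshold (0.05) and the number of genes adjusted over (23768 for diet in WT, 19511 for diet in TET2 KO, 18463 for genotype on chow and 18703 for genotype on HFD). In that order the tables list 7330, 1628, 1298 and 3939 genes.

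Counts of all listed genes were tested with edgeR 4.0.16 (quasi-likelihood, R 4.3.3) between the 2 groups compared, without covariates, with library sizes from the deposited size factors. A gene counted as called when its p before adjustment was under 0.05, and rose or fell means called. Adjustment was by Benjamini-Hochberg over those numbers of genes. For the 12-library fit, size factors of the 4 tables were put on 1 scale (largest log residual 0.00856). Alternatives were DESeq2 1.42.0, limma-trend 3.58.1 on log2(FPKM + 0.1) and log2(FPKM + 1), library totals, a minimum mean normalized count of 10, a replicate block and leaving out each library. No 2 replicates agreed within counting noise.

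The named genes were the members, every listed gene of the STAT, IRF, MHC transactivator, ligand and receptor, Janus kinase and negative regulator lists, and up to 4 genes per other list and table with the largest difference among those called with at least 50 mean normalized counts. Cell type markers were described by counts and the most abundant gene, and likeness by the 5 highest r. Genes named outside the rule (H2-K1, B2m, Eif2ak2 and single markers) were chosen after their values were seen. The members and the lists were chosen with earlier results of these data known. A few genes that the rule would name are not reported here, and the regulation list is given without them.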

Additional observations from a re-analysis of the deposited data

Results flagged for a closer look

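Among 21 regulation and target genes with counts in all 12 libraries, apart from the members, 9 had a diet difference that differed between genotypes in the edgeR interaction test at an unadjusted p under 0.05, beside 56.4% of the 975 genes in that fit, and in all 9 it was smaller, or lower, in TET2 KO. Stat2, Irf5 and Irf7 were not called in that test. The interaction (diet difference in TET2 KO minus that in WT, log2) was -2.61 for Ifi44, -1.46 for Gbp5, -1.40 for Oasl2, -1.29 for Ifit3, -1.10 for Jak3, -1.09 for Xaf1, -0.85 for Cmpk2, -0.66 for Psmb10 and -0.64 for Tapbp. A gene has counts in all 12 libraries only if the tables that list it cover the 4 groups, and 5 of the 9 entered through both genotype tables and not through both diet tables, which favours a large interaction. Among the 16 genes listed for diet in both genotypes, 4 were called (Jak3, Xaf1, Cmpk2 and Ifit3), beside 31.1% of the 611 such genes. The summed FPKM of the endothelial markers was also higher on HFD in WT, at 1012 ± 269 (SD, n = 3) against 393 ± 225 on chow. Among cell type markers with counts in all 12 libraries, Ccr2 (-2.06) and the T cell gene Cd8a (-1.04) were called in the same test and direction. The others of the monocyte and macrophage list lay in the other direction and were not called, Siglecf (0.39), Marco (0.28) and Mrc1 (0.13). Gzma (-0.90), Emcn (-0.76), Pdgfrb (-0.11), Pdgfra (-0.01) and Epcam (0.11) were not called either. The part of these markers in the differences was not tested.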

How the results depend on the processing

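The direction of every diet difference of the members was the same in all alternatives and in all fits without 1 library. Leaving out 1 library, the log2 difference in WT ranged from 0.64 to 0.82 for Irf7, 0.44 to 0.72 for Irf5, 0.27 to 0.46 for Stat2 and 0.23 to 0.48 for Nlrc5, and in TET2 KO from 0.45 to 0.79 for Irf7, 0.38 to 0.69 for Irf5 and 0.24 to 0.36 for Stat2. The members called ranged from 2 to 3 in WT and 0 to 2 in TET2 KO. Without 1 library the interaction ranged from -0.26 to 0.072 for Irf7, -0.20 to 0.13 for Irf5 and -0.15 to 0.040 for Stat2, the genotype difference on chow from -0.27 to 0.019 for Irf5, and that on HFD from -0.11 to 0.23 for Irf7 and -0.034 to 0.15 for Stat2, so the signs of these small values are not fixed.

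With library totals, Nlrc5 in WT (0.34) was no longer called. With DESeq2, Stat2 in TET2 KO (0.31) was. The cause was not tested. After adjustment, DESeq2 called 4546 genes for diet in WT and 70 in TET2 KO, against 1363 and 1 in edgeR. In WT, edgeR called 0 with the replicate block or without WT HFD replicate 1, WT HFD replicate 2 or WT chow replicate 2, 2 without WT HFD replicate 3, 322 without WT chow replicate 1 and 1594 without WT chow replicate 3. Irf5 in WT was under 0.05 with DESeq2 (adjusted p = 0.035) and in the edgeR fit of all 12 libraries (adjusted p = 0.0362, over 975 genes alone). Called regulation genes ranged without 1 library from 11 to 14 (WT diet), 2 to 3 (TET2 KO diet), 1 to 3 (genotype, chow) and 3 to 5 (genotype, HFD), and called target genes from 44 to 50, 12 to 15, 3 to 11 and 4 to 9. For diet in TET2 KO, 4 regulation genes were called by DESeq2 and 4 by limma-trend on log2(FPKM + 1), against 2.

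The replicate numbers were not taken to pair the mice, since in no comparison was every correlation of same-numbered deviations over 0.1. They ran from -0.23 to -0.01 (WT diet), 0.07 to 0.25 (TET2 KO diet), -0.21 to 0.27 (genotype, chow) and -0.08 to 0.21 (genotype, HFD), and 0, 3, 1 and 0 libraries were closest to their own number. With the replicate number as a block, Stat2 (0.37) and Nlrc5 (0.36) in WT were not called, which left 2 members called, and 6 regulation genes were called between genotypes on HFD. At 36.7 M reads or more, the counting error of the members was under the spread between mice. Genes outside the tables were not analysed here.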
